A study of Mus musculus with 26 samples.

Results

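Expression of 9 lymphocyte genes was examined in brown adipose tissue (BAT) of cold-exposed mice. Of these, 5 mark T cells (Cd3d, Cd3e, Cd3g, Cd4 and Cd8a) and 4 mark B cells (Cd79a, Cd79b, Ms4a1 and Ighm). All 9 are among the 50686 genes listed, and 8 are among the 17286 that passed the filter on low counts. The exception was Cd3d.

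BAT from 26 male C57BL/6J mice of 12 to 16 weeks was profiled by RNA-sequencing, with the source labelled as supraclavicular BAT. All mice were individually housed for 2 weeks at thermoneutrality, which the sample labels give as 30 °C and the study's methods as 29 °C. At this temperature BAT was taken from 7 control mice and 7 mice labelled FAKO (fat-specific Afadin knockout), and after 6 h at 5 °C from 5 control mice and 7 mice labelled FAKO. FAKO mice carry floxed Mllt4 alleles (Mllt4 flox/flox), now named Afdn, and a Cre driven by the Adiponectin promoter, which is active in brown and white adipocytes and not in lymphocytes, while controls are littermates. Mice are called here by the numbers in their labels, such as mouse 23.

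T cells recognise antigen through a receptor that signals through the CD3 chains, with CD4 on helper cells and CD8 on cytotoxic cells as co-receptors. B cells use membrane immunoglobulin, which signals through the CD79A and CD79B pair. Both kinds of cell are minor residents of adipose tissue, and lymph nodes lie embedded in fat depots, so that a piece of node can be taken along with the fat. In bulk tissue, fewer cells of a type and less RNA per cell cannot be told apart.

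Total counts per library ran from 12705969 to 25732258, and at these depths 3 counts corresponded to 0.129 to 0.232 CPM (counts scaled to library size with TMM factors). Afdn was 196 CPM ± 21.0 (SD, n = 7) in control mice and 195 ± 27.4 (n = 7) in mice labelled FAKO at 30 °C, and 73.5 ± 4.27 (n = 5) and 58.5 ± 4.15 (n = 7) at 5 °C. Since Afdn was not lower in the libraries labelled FAKO at thermoneutrality, the groups are called by their labels. The Afdn values are RNA counts over the whole gene. For protein, the paper reported a smaller rise of Afadin with cold in FAKO mice. Ucp1, the uncoupling protein of brown adipocytes, was 985 CPM ± 234 (n = 7) in control mice at 30 °C and 16005 ± 552 (n = 5) at 5 °C, and had at least 10870 counts in each library. Skeletal muscle genes such as Myh4, a fast myosin, ranged from 1 to 63910 counts between mice. The lymphocyte genes were at the other end of the scale, with between 0 and 71 counts per library for the genes other than Ighm.

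The genes for the CD3 chains form a cluster on chromosome 9 of mm10, with Cd3g (ENSMUSG00000002033.14, minus strand, 44969572 to 44980431), Cd3d (ENSMUSG00000032094.8, plus strand, 44981786 to 44987339) and Cd3e (ENSMUSG00000032093.7, minus strand, 44998740 to 45009627) within 40056 bp. Cd3g and Cd3d are divergent, with starts 1355 bp apart. Exons of Cd3e overlap those of the antisense gene Gm48719 by 135 bp, and the strand setting of the counting is not given in the sources used here. Cd4 lies on chromosome 6 (ENSMUSG00000023274.14, 124864692 to 124888221) together with Cd8a (ENSMUSG00000053977.13, 71373427 to 71379173), Cd79a on chromosome 7 (ENSMUSG00000003379.7, 24897381 to 24902197), Cd79b on chromosome 11 (ENSMUSG00000040592.11, 106311341 to 106314762), Ms4a1 on chromosome 19 (ENSMUSG00000024673.9, 11249675 to 11266241) and Ighm on chromosome 12 (ENSMUSG00000076617.9, 113418558 to 113422730). All but Ighm, an immunoglobulin constant region, are annotated as protein-coding genes.

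Promoters are shown for the CD3 cluster and for Cd79a, the member with the smallest adjusted p for cold in control mice. The 3 genes of the cluster had their highest level of all in mouse 23, as had Cd4, Cd79b and Ms4a1. RefSeq entries on GRCm38.p6 matched 5 of the 9 members, of which Cd8a is not printed. Each is the 250 bases before the gene's start in RefSeq, given 5′ to 3′ on the gene's strand. For Cd3e and Cd79a this start lies inside the gene as annotated in GENCODE, so that the end of the window falls within the gene positions given above. The windows lie at chr9:44981536-44981785 for Cd3d (plus), chr9:44980432-44980681 for Cd3g (minus), chr9:45009612-45009861 for Cd3e (minus) and chr7:24897247-24897496 for Cd79a (plus). Capitals mark matches to the searched motifs.
Cd3d: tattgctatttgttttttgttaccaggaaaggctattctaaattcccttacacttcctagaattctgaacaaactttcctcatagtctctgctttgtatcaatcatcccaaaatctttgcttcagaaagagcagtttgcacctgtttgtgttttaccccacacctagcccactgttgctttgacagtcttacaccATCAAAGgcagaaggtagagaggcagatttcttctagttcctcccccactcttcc
Cd3g: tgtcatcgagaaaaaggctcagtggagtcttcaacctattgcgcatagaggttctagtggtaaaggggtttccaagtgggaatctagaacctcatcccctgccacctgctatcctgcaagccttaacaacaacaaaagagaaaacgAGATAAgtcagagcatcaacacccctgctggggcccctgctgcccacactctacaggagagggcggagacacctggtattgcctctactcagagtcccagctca
Cd3e: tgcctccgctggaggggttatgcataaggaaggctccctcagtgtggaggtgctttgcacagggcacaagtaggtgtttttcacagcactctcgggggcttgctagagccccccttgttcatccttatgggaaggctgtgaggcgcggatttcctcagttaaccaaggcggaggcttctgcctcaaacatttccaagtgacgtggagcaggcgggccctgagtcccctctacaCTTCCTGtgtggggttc
Cd79a: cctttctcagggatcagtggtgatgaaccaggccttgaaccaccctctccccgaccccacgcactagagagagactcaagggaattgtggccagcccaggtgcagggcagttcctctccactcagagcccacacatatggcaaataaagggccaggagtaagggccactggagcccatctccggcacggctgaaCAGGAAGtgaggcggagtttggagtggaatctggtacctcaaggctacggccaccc
The motifs were searched on both strands. The capitals in Cd3d match CTTTGAT, letters bound by TCF and LEF factors, which 3.21% of 32851 promoters of this length hold. Those in Cd3g match AGATAA (9.99% of promoters), letters recognised by the GATA factors. In Cd3e and Cd79a the capitals match CAGGAAG, an ETS motif (10.8%). No match to the octamer ATGCAAAT (1.6% of promoters), the EBF motif (0.779%) or the RUNX motif TGTGGT (14.0%) was found in these 5 windows. A match describes letters only.

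One library stood apart and is described before the comparisons. Mouse 23, labelled FAKO and kept at 5 °C, had the highest CPM of its 7 mice for 9 of the 9 lymphocyte genes, whereas it was the highest for 16.1% of all genes tested. Its ratio to the median of the other 6 mice ran from 3.72 for Cd4 to 45.4 for Ms4a1, with a median of 7.68 over the 9 genes, where the median over all tested genes was 1.00. Ms4a1 had 71 counts in mouse 23 and between 0 and 6 in the other 6 mice, with a median of 1.5, so that its ratio rests on very few reads. Cd3g had 57 counts against 3 to 8, and Cd79b had 63 against 1 to 7.

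Both lymphocyte lineages were raised in mouse 23. Of 22 other T cell genes, 22 were highest there (median ratio 7.62), and of 20 other B cell genes, 18 were (median ratio 7.94). The exceptions were Cd72, a B cell co-receptor with a ratio of 1.72, and Vpreb3, a gene of B cell precursors with 0.297. Among 10 homing and egress genes 7 were highest (median ratio 4.34), and among 5 genes of all leukocytes 5 were (2.24). The list of natural killer and cytotoxic genes was highest for 3 of 10 (1.67), that of plasma cells for 2 of 8 (1.79), that of macrophages for 5 of 10 (1.19), that of neutrophils for 0 of 7 (0.423), that of dendritic cells for 1 of 7 (1.36), that of lymphatic endothelium for 1 of 6 (0.852), that of red blood cells for 0 of 6 (0.830) and that of brown adipocytes for 0 of 7 (1.01). The 5 skeletal muscle genes were far below the group's median there, with a median ratio of 0.00155, but this was not particular to mouse 23. Their summed level was 1.63 CPM in mouse 23, 3.26 in mouse 27 of the same group and 0.772 in control mouse 18 at 5 °C. Mouse 25 of the same group had 6748 CPM.

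Genes of lymph node stroma and high endothelial venules, the vessels through which lymphocytes enter a node, were given by 9 listed genes. Glycam1, a ligand that these vessels display for lymphocytes, was the 1 gene highest in mouse 23, with 24 counts there and 3 to 11 in the other 6 mice. Cxcl13, the chemokine that draws B cells into follicles, had 189 counts in mouse 23 and 48 to 338 in the others. The other 7 genes had at most 7 counts in any library. Chst4, Fut7, Madcam1, Ccl19 and Ccl21a had 0 counts in mouse 23, which allows up to 3, and Tnfsf11 and Clec4g had 1 count. The other 6 mice had at most 5 counts of any of these 7, so that the zeros do not set mouse 23 apart. Ccl21a, which has near-identical copies, had 0 counts in all 26 libraries.

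Thymus genes were followed with 8 genes. Ccl25, a chemokine of thymus and gut epithelium, had 231 counts in mouse 23 and 142 to 215 in the other 6 mice, with a ratio of 1.25 in CPM. Arpp21 had 0 counts in mouse 23 and 0 to 71 in the others. Rag1, Ptcra and Foxn1 had 0 counts in mouse 23 and Rag2, Dntt and Psmb11 had 1 count, and the other 6 mice had at most 5 counts of any of these 6 genes. Dntt, with at most 1 count in the others, was the 1 thymus gene marked as highest in mouse 23. Whether lymph node tissue gave the extra T and B cell counts was not tested, and the cold responses of the 8 tested members are given with and without mouse 23.

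**Figure D1:**
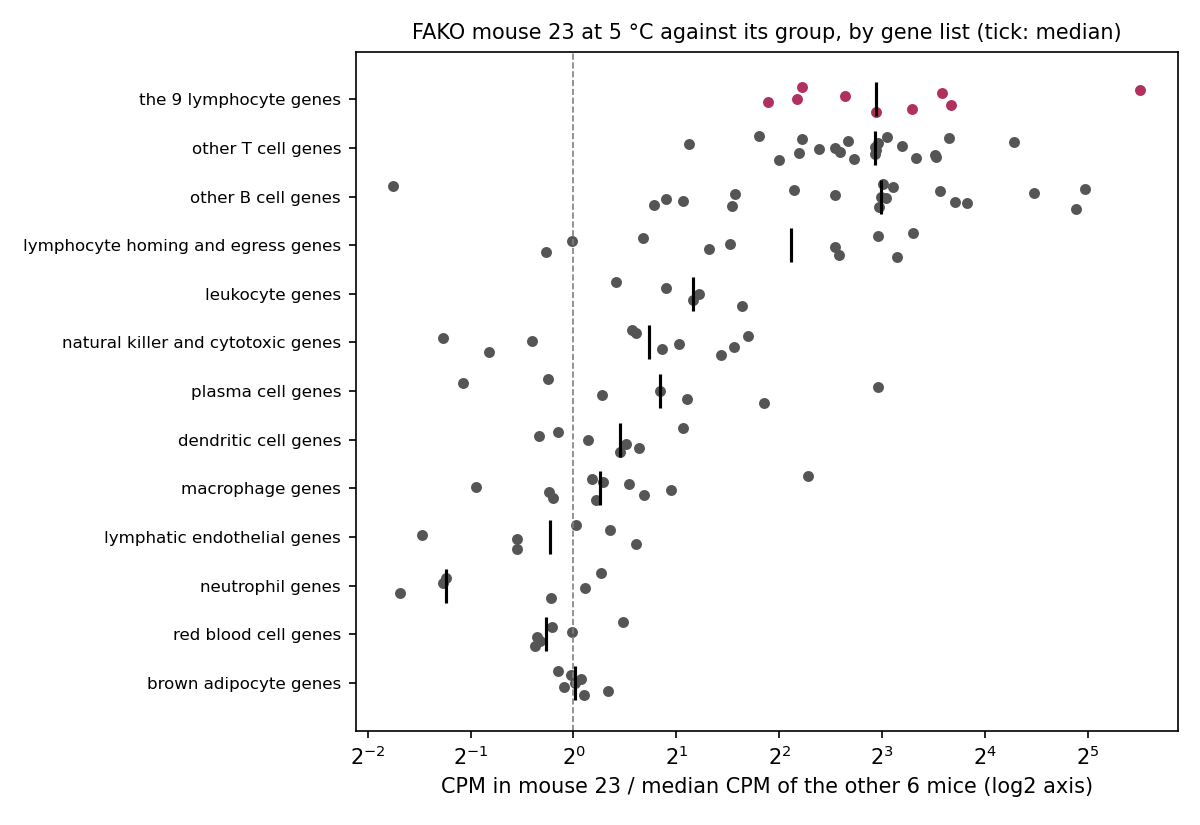
Ratio of the CPM of mouse 23 to the median CPM of the other 6 mice labelled FAKO at 5 °C, on a log2 axis. There is 1 point per gene, 1 row per gene list drawn, and a tick at each median. The lists of lymph node stroma and high endothelial venule genes, thymus genes and skeletal muscle genes have no row. Genes with a ratio of 0 or a denominator of 0 are not drawn, and those with a ratio of 0 count in the median. The T and B cell rows lie to the right, with medians of 7.62 and 7.94, and the brown adipocyte row lies at 1.01.

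The question of what cold did to the lymphocyte genes was addressed first in control mice. After 6 h at 5 °C, 5 of the 8 tested genes were lower than at thermoneutrality and 0 were higher, against 33.4% lower and 31.6% higher among all genes tested. All 4 B cell genes were among the 5, together with Cd4. The median log2 fold change of the 8 genes was -1.63, where that of all genes tested was -0.01. In 4 of the genes (Cd4, Cd79a, Ms4a1 and Ighm) each of the 5 mice at 5 °C was below each of the 7 at 30 °C, as in 22.9% of all genes tested.

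Cd79a encodes the signalling chain CD79A of the B cell receptor. In control mice its level ran from 0.918 to 1.87 CPM at 30 °C (median 1.62, n = 7). At 5 °C the 5 control mice had 0.178, 0.279, 0.215, 0.416 and 0.461 CPM. These groups were apart, and the log2 fold change was -2.29 (SE 0.41, adjusted p = 2.22e-05 by edgeR quasi-likelihood with Benjamini-Hochberg). Among mice labelled FAKO it ran from 1.12 to 1.90 CPM at 30 °C (median 1.51, n = 7) and from 0.119 to 1.63 at 5 °C (median 0.281, n = 7), and the highest value was that of mouse 23. The change was -1.58 (SE 0.34, adjusted p = 0.000226 by edgeR quasi-likelihood). Without mouse 23 the highest value at 5 °C was 0.598 CPM, the groups did not overlap, and the change was -2.28 (adjusted p = 3.31e-08 by edgeR quasi-likelihood), close in size to that of control mice.

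Cd79b, the partner chain of CD79A, had 0.322 to 2.27 CPM in control mice at 30 °C (median 0.850, n = 7), the highest of them mouse 3. At 5 °C the 5 control mice had 0.178, 0.348, 0.0858, 0.208 and 0.346 CPM. The ranges overlapped slightly, and the log2 fold change was -2.07 (SE 0.71, adjusted p = 0.0131 by edgeR quasi-likelihood with Benjamini-Hochberg). For mice labelled FAKO it ran from 0.590 to 1.03 CPM at 30 °C (median 0.749, n = 7), and at 5 °C from 0.0699 to 3.81 (median 0.337, n = 7). With mouse 23 at the top of this range the change was -0.02 and did not pass the test, and without it the 6 other mice lay between 0.0699 and 0.427 CPM, below all 7 at 30 °C, with a change of -1.46 (SE 0.39, adjusted p = 0.00181 by edgeR quasi-likelihood).

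Ms4a1 encodes CD20, a surface protein of mature B cells. It had 0.423 to 1.38 CPM in control mice at 30 °C (median 0.688, n = 7), and 0.119, 0.139, 0.0429, 0.208 and 0.115 CPM in the 5 control mice at 5 °C, which correspond to 1 to 4 counts per library. The groups did not overlap, and the log2 fold change was -2.54 (SE 0.99, adjusted p = 0.0270 by edgeR quasi-likelihood with Benjamini-Hochberg). This call was lost without control mouse 3 at 30 °C (-2.30, adjusted p = 0.0549, edgeR) or control mouse 18 at 5 °C (-2.27, adjusted p = 0.0662, edgeR). In mice labelled FAKO the level ran from 0.200 to 0.862 CPM at 30 °C (median 0.362, n = 7). At 5 °C the median was 0.119 CPM and mouse 23 had 4.29, while mice 26 and 28 had 0 counts, which allows up to 0.183 and 0.179 CPM. The sign of the change therefore turned on mouse 23, from 0.78 with it to -1.81 (SE 0.52, adjusted p = 0.00357 by edgeR quasi-likelihood) without it.

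Ighm encodes the constant region of IgM, the first antibody class that a B cell makes, and had the highest level of the 9 genes. Per length of exon, the mean was 6.07 RPKM ± 2.57 (SD, n = 7) in control mice at 30 °C, against 1.06 ± 0.214 for Cd79a, 0.660 ± 0.452 for Cd79b and 0.119 ± 0.0537 for Ms4a1. In control mice it ran from 6.18 to 20.5 CPM at 30 °C (median 10.3, n = 7), and the 5 mice at 5 °C had 4.57, 2.79, 1.63, 1.87 and 2.07 CPM. The groups were apart, with a change of -2.17 on the log2 scale (SE 0.43, adjusted p = 9.05e-05 by edgeR quasi-likelihood with Benjamini-Hochberg). Among mice labelled FAKO it ran from 7.25 to 12.5 CPM at 30 °C (median 9.92, n = 7) and from 1.87 to 17.0 at 5 °C (median 4.89, n = 7), a change of -0.62 that did not pass the test (adjusted p = 0.128, edgeR). Mice 22 (7.90 CPM), 25 (4.89 CPM) and 27 (6.75 CPM) also lay above all control mice at 5 °C. Without mouse 23 the change was -1.13 (SE 0.31, adjusted p = 0.00233 by edgeR quasi-likelihood).

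Of the 4 tested T cell genes, 1 passed the test in control mice. Cd4, the helper cell co-receptor that some myeloid cells carry as well, had 0.967 to 2.33 CPM in control mice at 30 °C (median 1.24, n = 7), and 0.356, 0.348, 0.858, 0.728 and 0.749 CPM in the 5 control mice at 5 °C. The groups did not overlap, and the log2 fold change was -1.19 (SE 0.41, adjusted p = 0.0118 by edgeR quasi-likelihood with Benjamini-Hochberg). For mice labelled FAKO the level ran from 0.949 to 2.83 CPM at 30 °C (median 1.34, n = 7) and from 0.599 to 3.93 at 5 °C (median 1.16, n = 7), and the change was -0.11. Without mouse 23 it was -0.61 (SE 0.28, adjusted p = 0.0558 by edgeR quasi-likelihood), so that Cd4 did not pass the test in these mice either way.

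Cd8a, the co-receptor chain of cytotoxic T cells, had 0.275 to 1.44 CPM in control mice at 30 °C (median 0.499, n = 7) and 0.178, 0.0697, 0.558, 0.416 and 0.749 CPM in those at 5 °C. These overlapped, and the log2 fold change of -0.74 (SE 0.57) did not pass the test. In mice labelled FAKO it ran from 0.568 to 2.89 CPM at 30 °C (median 0.757, n = 7), the highest of them mouse 11, and from 0.119 to 1.63 at 5 °C (median 0.366, n = 7). The change was -1.14 (SE 0.48, adjusted p = 0.0367 by edgeR quasi-likelihood with Benjamini-Hochberg), and -1.78 (adjusted p = 0.00166, edgeR) without mouse 23. With mouse 23 kept, the call was lost when mouse 8 or 11 at 30 °C, or mouse 22, 25, 26, 27 or 28 at 5 °C, was left out.

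The CD3 chains carry the signal of the T cell receptor. Cd3g counts were 6 to 20 in controls at 30 °C and 2 to 13 at 5 °C (0.728 CPM ± 0.347, n = 7, and 0.316 ± 0.174, n = 5). Its log2 fold change was -1.09 (SE 0.68) in control mice and -0.25 (SE 0.54) in mice labelled FAKO, neither of which passed the test, and -1.56 (SE 0.43, adjusted p = 0.00240 by edgeR quasi-likelihood with Benjamini-Hochberg) in the latter without mouse 23. Cd3e had 3 to 15 and 1 to 8 counts in control mice, with changes of -0.69 (SE 0.72) in control mice, 0.14 in mice labelled FAKO and -0.84 (adjusted p = 0.142, edgeR) in these without mouse 23. Cd3d had at most 12 counts in any library other than mouse 23, where it had 25. With no filter on low counts its change was -1.0 (SE 0.60) in control mice and 0.47 in mice labelled FAKO, and neither passed the test. Without mouse 23 Cd3d did not pass the filter on low counts.

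**Figure D2:**
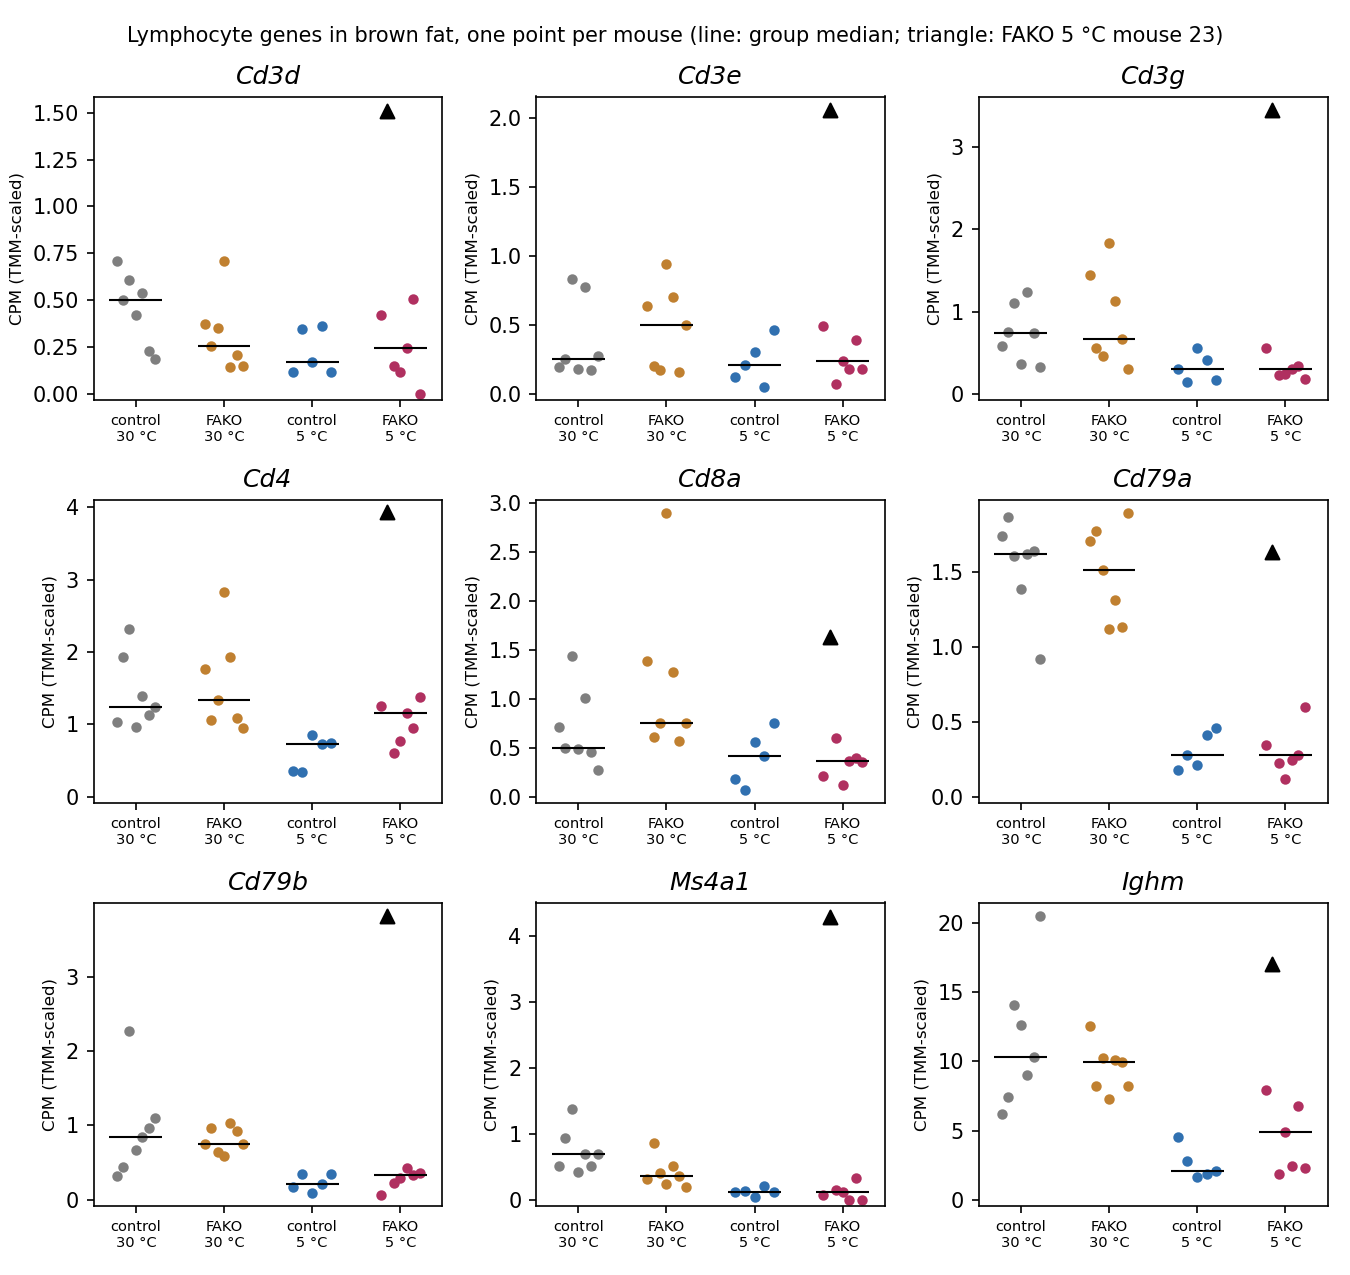
CPM of each of the 9 lymphocyte genes in each of the 26 mice, by group, on linear axes of different height, with a line at the median. Black triangles mark mouse 23, which is the highest of the mice labelled FAKO at 5 °C in every panel, while most other mice at 5 °C lie low in the panels of Cd79a, Cd79b, Ms4a1 and Ighm.

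Among mice labelled FAKO as a whole, 2 of the 8 tested genes (Cd8a and Cd79a) were lower in the cold and 0 higher, against 34.9% lower and 33.7% higher among all genes tested. The median log2 fold change of the 8 genes was -0.18. Without mouse 23, 6 of the 8 genes were lower and 0 higher, against 35.5% and 33.3% of all genes tested, and the median was -1.51. The 6 were all 4 B cell genes together with Cd3g and Cd8a. With mouse 23 in the comparison 0 members had groups that did not overlap (19.3% of all genes did so on the lower side), and 2 did without it (20.7%).

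**Figure D3:**
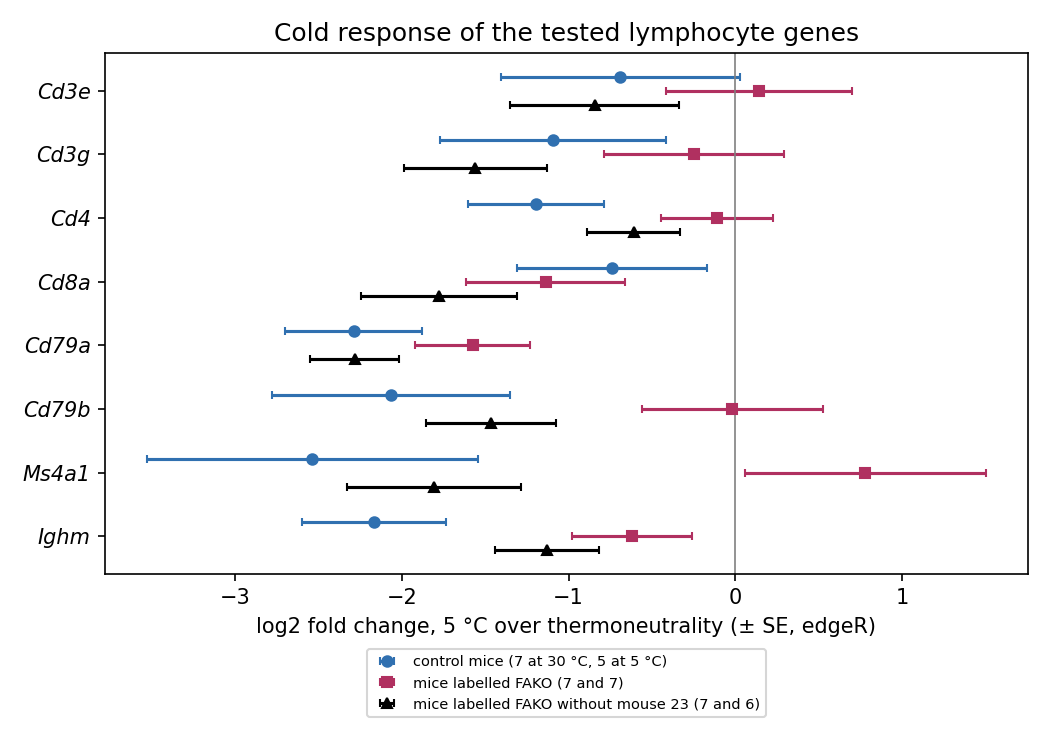
Log2 fold change from thermoneutrality to 5 °C, with SE bars from edgeR, for the 8 tested lymphocyte genes in control mice (circles), mice labelled FAKO (squares) and the latter without mouse 23 (triangles). Leaving out mouse 23 moves each gene to the left, most of all Ms4a1, from 0.78 to -1.81.

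Control mice and mice labelled FAKO were then compared at each temperature. At 30 °C, 0 of the 8 genes passed edgeR's test, with 0 below an unadjusted p of 0.05, and 0 passed with DESeq2, where 0.081% of all genes tested passed edgeR's. The median log2 difference of the 8 genes was 0.04, and the largest for a B cell gene was that of Ms4a1, with 0.736 CPM ± 0.332 (n = 7) in control mice and 0.415 ± 0.224 (n = 7) in mice labelled FAKO. At 5 °C, 0 of the 8 genes passed with edgeR or DESeq2 (0.139% of all genes tested passed with edgeR), although 4 had an unadjusted p below 0.05, those of Cd4 (0.00639), Ighm (0.00661), Ms4a1 (0.0185) and Cd79b (0.0193) in edgeR's quasi-likelihood test, all in the direction of higher levels in mice labelled FAKO. Without mouse 23 the unadjusted p of Cd4 was 0.0428 and that of Ighm was 0.0430 in edgeR's quasi-likelihood test, the median log2 difference fell from 1.20 to 0.08, and again 0 of the 8 passed after adjustment (0.127% of all genes tested).

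The difference between the cold responses of the labelled genotypes was tested as an interaction, and 0 of the 8 genes passed with edgeR or DESeq2 (1.16% of all genes tested passed with edgeR), with 4 below an unadjusted p of 0.05 in edgeR. The largest interaction was that of Ms4a1, with 3.31 on the log2 scale (adjusted p = 0.176 by edgeR quasi-likelihood with Benjamini-Hochberg), which was 0.74 without mouse 23. For Ighm it was 1.55 (adjusted p = 0.160, edgeR), and 1.04 (adjusted p = 0.247, edgeR) without mouse 23. For Cd79a, it was 0.02 without mouse 23, and without that mouse 0 of the 8 passed as well (1.07% of all genes tested). The 5 called genes of control mice and the 2 of mice labelled FAKO are therefore not shown to be different responses.

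The wider lymphocyte programme was followed in other gene lists. Of 22 other T cell genes 21 were tested, and 4 were lower and 0 higher in the cold in control mice, with a median log2 fold change of -0.81. These 4 of 21 are a smaller share than the 33.4% of all genes tested that were lower. For mice labelled FAKO, 1 of 21 was lower (median 0.03), against 34.9% of all genes, and without mouse 23 it was 9 of 19 (median -0.77), against 35.5%. Cd247, which encodes the zeta chain of the T cell receptor complex, was at 42 to 95 counts in controls at 30 °C and at 2 to 13 after cold. At 30 °C these controls had fewer counts of Cd3d (4 to 11), Cd3e (3 to 15) and Cd3g (6 to 20). Whether cells other than T cells gave Cd247 counts was not tested. The log2 fold change of Cd247 was -3.11 (SE 0.43) for controls, -1.93 (SE 0.35) for mice labelled FAKO and -2.43 (SE 0.31) for these without mouse 23. Cd247 passed the test each time. Lcp2, the adaptor SLP-76 that myeloid cells also express, had changes of 0.02, 0.40 and 0.23 and did not pass in any of the 3.

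Of 20 other B cell genes 12 were tested, and 8 were lower and 0 higher in control mice (median -1.49), against 33.4% of all genes that were lower. In mice labelled FAKO 4 of 12 were lower (median -0.14), against 34.9%, and without mouse 23 8 of 11 (median -1.19), against 35.5%. Blnk, an adaptor of B cell receptor signalling, changed by -1.06 (SE 0.26) in control mice, -0.59 (SE 0.23) in mice labelled FAKO and -0.79 (SE 0.22) in these without mouse 23, and passed the test each time. Igkc, the kappa light chain constant region, had changes of -1.32 (SE 0.69), 0.69 (SE 0.57) and -0.27 (SE 0.49), none of which passed. It had 205 counts in mouse 23 and 3 to 99 in the other 6 mice.

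Those cytotoxic, plasma and dendritic cell genes that passed the test were all lower. Of 9 tested natural killer and cytotoxic genes, 4 were lower in control mice, 4 in mice labelled FAKO and 3 in these without mouse 23. These counts were near the shares of all genes tested that were lower, which were 33.4%, 34.9% and 35.5%. Prf1, the pore-forming protein perforin, changed by -1.68 (SE 0.40), -2.74 (SE 0.37) and -2.90 (SE 0.40) and passed each time, and had 9 counts in mouse 23, within the range of 1 to 10 of the other 6 mice. Klrk1, the activating receptor NKG2D, passed in control mice (-0.90, SE 0.35) and not in mice labelled FAKO (-0.23 with mouse 23 and -0.37 without). Of 5 tested plasma cell genes 2 were lower in each of the 3 comparisons, also near the shares of all genes tested. Prdm1, a regulator of plasma cell differentiation, changed by -1.42 (SE 0.32), -1.27 (SE 0.27) and -1.16 (SE 0.27) and passed each time. Sdc1, the surface protein syndecan-1, passed in control mice only among the 3 (-0.72, -0.21 and -0.16). Of 7 dendritic cell genes 4 were lower and 0 higher in each comparison, against the same shares of all genes tested. Itgax, the integrin CD11c, changed by -1.26 (SE 0.43), -0.95 (SE 0.37) and -0.90 (SE 0.39) and passed each time.

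Genes of other leukocytes were called in both directions. Ptprc, the common leukocyte antigen CD45, changed by -0.76 (SE 0.29) in control mice and passed the test, and by -0.30 in mice labelled FAKO without passing it, but by -0.63 (adjusted p = 0.0116 by edgeR quasi-likelihood) once mouse 23 was left out. Of 10 tested macrophage genes 3 were higher and 4 lower in control mice, near the shares of all genes tested (31.6% and 33.4%). Among mice labelled FAKO 6 were higher and 2 lower, against 33.7% and 34.9%. Mrc1, the mannose receptor CD206, changed by 0.78 (SE 0.13) in control mice and 1.27 (SE 0.12) in mice labelled FAKO and passed in both. Lyz2, the other gene named from this list, went the other way. It changed by -0.54 (SE 0.19) in control mice and passed, and by -0.18 (SE 0.17) in mice labelled FAKO without passing. Of 6 tested neutrophil genes 4 were higher and 0 lower in control mice, against 31.6% of all genes tested that were higher. In mice labelled FAKO 5 were higher with or without mouse 23, against 33.7% and 33.3%. S100a9, a calcium-binding protein of neutrophils, had changes of 1.68 (SE 0.58), 3.35 (SE 0.55) and 3.52 (SE 0.52), the last without mouse 23.

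Among stromal and homing genes, Cxcl13 was higher in the cold, with 2.06 (SE 0.44) in control mice, 3.58 (SE 0.45) in mice labelled FAKO and 3.57 (SE 0.46) in these without mouse 23. S1pr1, the receptor that guides lymphocytes out of tissue, is also expressed by endothelial cells. It changed by 1.25 (SE 0.11), 1.25 (SE 0.10) and 1.28 (SE 0.11) and passed each time. S1pr1 was the 1 of 9 tested homing and egress genes that was higher in control mice, where 3 were lower (median -0.19). The shares of all genes tested were 31.6% higher and 33.4% lower. With the FAKO label 4 were higher and 1 lower, against 33.7% and 34.9%. Without mouse 23 these were 2 and 2, against 33.3% and 35.5%. Klf2, the other gene named from this list, changed by -0.18, 0.46 and 0.45 and did not pass.

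Red blood cell genes were called higher in mice labelled FAKO and not in control mice, but these responses are not shown to be different. In control mice 0 of 6 passed edgeR's test (median 0.06), and Hbb-bs, a beta globin, had a change of 0.07 (SE 0.30). For mice labelled FAKO 6 of 6 were higher (median 1.20), against 33.7% of all genes tested, with Hbb-bs at 1.24 (SE 0.28). Without mouse 23 it was again 6 of 6 (median 1.24), against 33.3%, with Hbb-bs at 1.28 (SE 0.29). However, 0 of the 6 passed in the interaction, and 0 passed between the labelled genotypes at 5 °C. The part of blood content in the lymphocyte gene results was not tested.

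Summed over the 9 genes, the level in control mice ran from 12.0 to 25.6 CPM at 30 °C (median 17.2, n = 7) and from 4.42 to 6.11 CPM at 5 °C (median 4.68, n = 5). For mice labelled FAKO it ran from 13.7 to 20.9 CPM at 30 °C (median 15.9, n = 7) and from 4.12 to 39.4 CPM at 5 °C (median 6.91, n = 7), and the highest value without mouse 23 was 11.3 CPM. Ighm contributed more to the group means of this sum than any other member. The groups of control mice did not overlap, and those of mice labelled FAKO did not overlap without mouse 23.

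**Figure D4:**
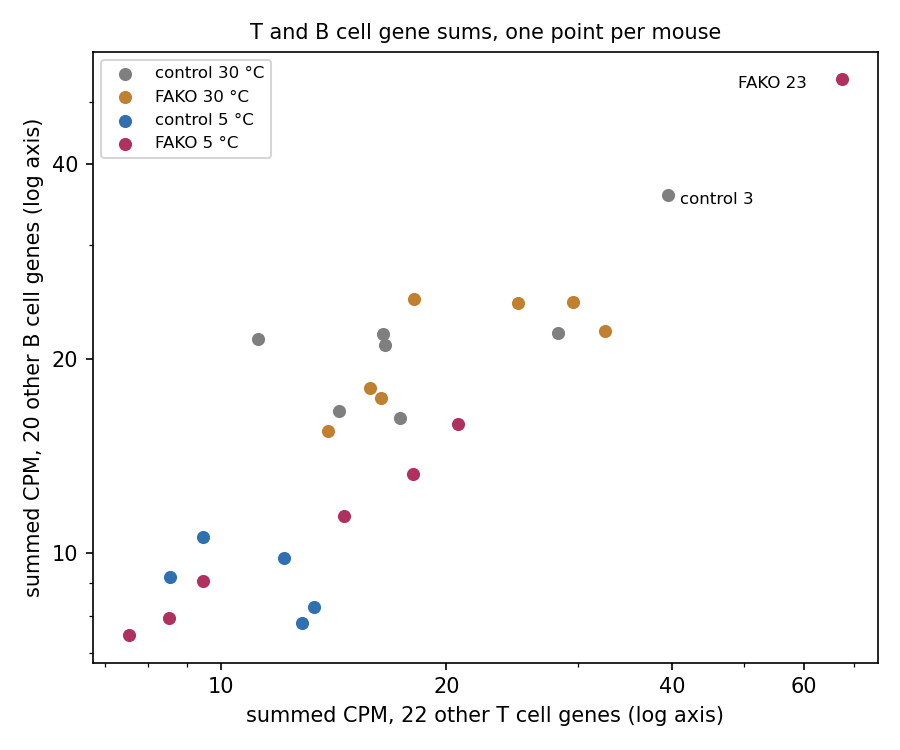
Summed CPM of 20 other B cell genes against that of 22 other T cell genes, 1 point per mouse, both on log axes. Mouse 23 lies at 67.5 (T) and 54.2 (B), followed by control mouse 3 at 39.5 and 35.8, and the other mice at 5 °C lie at or below 15.9 on the B cell axis.

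Mouse 3, a control at 30 °C, was the highest of its group for 5 of the 9 genes (12.9% of all genes tested) with a median ratio of 1.96, and for 17 of 22 other T cell and 18 of 20 other B cell genes. Cd79a was not raised in mouse 3, with a ratio of 0.983, against 1.45 for Ighm, 2.30 for Ms4a1 and 3.00 for Cd79b. Unlike mouse 23, mouse 3 was the highest for 6 of 7 dendritic cell genes, and its muscle genes were above its group's median by a median ratio of 9.60. Its summed muscle genes, at 499 CPM, were still below those of mice 4 (1305 CPM) and 7 (4970 CPM) of its group. Mouse 11, labelled FAKO at 30 °C, had the highest Cd8a (49 counts) and Cd3g (31 counts) of its group together with the lowest count of Cd79a (19 counts).

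To see whether the balance between lineages shifted, log2 ratios of counts were compared with exact two-sided permutation tests, 12 in all. Each ratio rests on single genes, and in mouse 3 Cd79a was not raised along with Cd79b and Ms4a1. The log2 ratio of Cd79a to Cd3e was 2.17 ± 0.93 (SD, n = 7) in control mice at 30 °C and 0.58 ± 1.13 (n = 5) at 5 °C, a difference of -1.59 (exact permutation p = 0.0303, adjusted 0.121). In mice labelled FAKO it was 1.85 ± 1.07 (n = 7) and 0.16 ± 0.93 (n = 7), a difference of -1.69 (exact permutation p = 0.0117, adjusted 0.0839), with mouse 23 at -0.33, within the range of its group, and -1.61 without mouse 23 (exact permutation p = 0.0216, unadjusted). From 30 °C to 5 °C the log2 ratio of Cd4 to Cd8a in mice labelled FAKO differed by 1.00 (exact permutation p = 0.0140, adjusted 0.0839). Without mouse 23 it differed by 1.05 (exact permutation p = 0.0186, unadjusted). In control mice the difference had the other sign, at -0.29 (exact permutation p = 0.467, adjusted 0.680). None of the 12 passed after Benjamini-Hochberg adjustment.

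Across mice of a group, Cd79a and Cd3e had a Pearson's r of 0.08 (exact permutation p = 0.883) and a Spearman's rho of -0.25 (p = 0.595) in the 7 control mice at 30 °C, and -0.12 (p = 0.791) and -0.21 (p = 0.662) in the 7 mice labelled FAKO. In the 7 mice labelled FAKO at 5 °C r was 0.78 (exact permutation p = 0.0647, adjusted over 9 correlations 0.291) and rho was 0.50 (p = 0.267), and r was 0.46 without the 2 mice farthest from the median. The other 6 correlations were with Cxcl13. Among these, Cd79a and Cxcl13 had an r of -0.92 in the 7 control mice at 30 °C (exact permutation p = 0.00476, adjusted 0.0429), but a rho of -0.64 (p = 0.139), and r was -0.63 over the 5 mice left without the 2 farthest from the median.

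Over all 26 mice, the genes whose log2 CPM was most like that of Cd79a were Ppp1r16b (r = 0.954), Wdyhv1 (0.947), Gm42847 (0.943), Bicdl1 (0.943) and Rhbdd3 (0.936). Those most like Cd3e were Tcf7 (0.845), Themis (0.831), Arhgap45 (0.828), Trbc2 (0.799) and Arhgap15 (0.796), of which Tcf7, Themis and Trbc2 are known from T cells. None of the 5 genes most like Cd79a is on the list of B cell genes used here. The ranking pools mice of both temperatures and of differing depth, so that it can follow the difference with cold, and it carries no test. Ppp1r16b, for one, had a mean of 12.6 CPM in control mice at 30 °C and 3.84 at 5 °C.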

How the data were processed

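RNA-sequencing libraries of rRNA-depleted BAT RNA from 26 mice were used, grouped by their labels. STAR v2.5.2b (mm10) and featureCounts v1.5.2 (GENCODE M13) were run by the authors, and the deposited values are raw gene counts. Nothing says that same-group mice share a litter or batch. Gene symbols, positions and exon lengths came from GENCODE M21, in which all 9 members have the same version. The 73 within-group pairs of libraries all differed by more than sampling noise (lowest chi-square per gene 4.92).

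Genes were kept with filterByExpr by group. Counts were scaled with TMM factors and tested with edgeR 4.0.16 in R 4.3.3 (legacy quasi-likelihood mode, 1 term per group, 5 contrasts), with Benjamini-Hochberg adjustment over all genes tested and a threshold of 0.05. Log2 CPM had a prior count of 2, and ratios a pseudocount of 0.5 counts. Exact permutation tests were two-sided. Floors of 3 counts cover counting error only. On simulated data, the comparison of cold in control mice recovered 143 of 200 changed genes among 16920 with 8 false calls. These 200 were changed 2-fold, up and down in equal number. In the real comparison 31.6% of genes were higher and 33.4% lower, so the simulation does not test calls under so wide a change.

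The members and the gene lists were chosen with earlier results of these data known. Genes named from the other lists were drawn from the 2 with the highest mean CPM in each, though not all of these are printed, and from all stroma and thymus genes; Cd72 and Vpreb3 were named after their values were seen. Alternatives were DESeq2 1.42.0, other scalings and filters, robust and revised edgeR modes, only the groups compared, a pseudocount of 1 and leaving out each mouse in turn. Leaving out mouse 23 alone is one of these, and leaving out mouse 23 together with control mouse 3 was added after seeing the data.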

Additional observations from a re-analysis of the deposited data

Results flagged for a closer look

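In groups of 5 to 7 mice, the highest or lowest mouse was compared with its group by Dixon's ratio for each of the 9 genes and 3 log2 ratios. Of 48 groups, 12 were past the 95% limit. For independent, normally distributed values about 1 in 20 would be past it. CPM from few counts, for genes of the same mice, need not be such values, so the rate by chance is not known here. Of these 12, 9 were mouse 23, labelled FAKO at 5 °C. It stood alone with 1.51 CPM of Cd3d, 2.06 of Cd3e, 3.45 of Cd3g, 3.93 of Cd4, 1.63 of Cd8a, 1.63 of Cd79a, 3.81 of Cd79b, 4.29 of Ms4a1 and 17.0 of Ighm. The nearest other mouse of its group had 0.506 CPM of Cd3d and 0.337 of Ms4a1. The 9 values come from 1 library and are not separate events.

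Mouse 11, labelled FAKO at 30 °C, stood apart with 0.708 CPM of Cd3d and 2.89 of Cd8a. Control mouse 3 at 30 °C stood apart with 2.27 CPM of Cd79b.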

How the results depend on the processing

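The count of genes lower in the cold among the 8 tested was 5 in control mice in all but 2 of the alternatives that kept every mouse: only the groups compared (4) and at least 10 counts in every mouse, a filter that leaves Ighm alone (1). Among mice labelled FAKO it was 2, and 3 with DESeq2 or with library size alone, 0 with at least 10 counts in every mouse, and 7 of 7 without mouse 23 and control mouse 3. With single mice left out it was 4 to 5 in control mice and 1 to 6 in mice labelled FAKO, where the 6 was without mouse 23. The change of Ms4a1 in mice labelled FAKO, 0.78, reversed to -1.54 with DESeq2, which replaces outlying counts in groups of this size, to -1.81 without mouse 23, and to -1.81 without the 2 mice. With single mice left out it ran from -1.81 to 1.03.

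The r of Cd79a and Cd3e in mice labelled FAKO at 5 °C was 0.81 with library size alone (exact permutation p = 0.0387). With 1 mouse left out, the difference of the log2 ratio of Cd4 to Cd8a ran from 0.50 to 0.97 between genotypes at 5 °C and from -0.70 to -0.43 at 30 °C, that of Cd79a to Cd3e from -2.07 to -1.33 with cold in control mice, and that of Ighm to Cd79a from 0.70 to 1.22 with cold in mice labelled FAKO, each crossing an unadjusted 0.05 in some of them. Library size alone moved the median of all genes to -0.34 with cold in mice labelled FAKO and to -0.14 in control mice. No paired analysis was possible because the groups share no replicate numbers. Counts of 0 to 71 per library limit the precision for all genes but Ighm.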
